A study of Mus musculus with 12 samples.

Results

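The components of Wnt signaling examined here were 42 genes, made up of 12 Wnt ligands, 11 receptors and co-receptors, 8 secreted or surface inhibitors, 8 cytoplasmic components and 3 nuclear components. Their members were found as probe sets with a single gene symbol, equal to 1 of the 42 names, in the annotation of the array. All 42 genes were found, with 94 of the 34945 single-symbol probe sets and 42 of the 18193 genes measured in the whole series. A single probe set was present for 13 members and several for 29. Where several were present, the probe set with the highest mean over all arrays, termed representative, stood for its gene.

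Neural retina from 10 weeks old mice of 2 strains, 129X1/SvJJmsSlc (129) and C57BL/6NCrSlc (B6), was hybridized to Affymetrix Mouse Genome 430 2.0 arrays. Each strain had 3 groups of 2 arrays, namely retinal explants kept for 3 days in vitro (3DIV) with CHIR99021, explants at 3DIV with vehicle (DMSO), and intact normal retina. CHIR99021 is an inhibitor of the kinase GSK3, and the labels give its concentration as 15 µM. Explanting the retina damages it, so the difference between explants with vehicle and normal retina is called the change after damage. Normal retina was not cultured, so damage, culture and vehicle cannot be told apart in this difference. The 2 arrays of a group are labelled as biological replicates, and the methods give 2 retinas for each condition, but whether they came from separate animals is not stated, so that p-values may measure only the spread between these samples. Total RNA of the whole neural retina was measured, and fewer cells of a type and less RNA per cell cannot be told apart.

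Wnt proteins are secreted ligands that bind Frizzled receptors together with the co-receptors Lrp5 and Lrp6. In the canonical branch, binding stops a complex of Apc, axin and GSK3 from marking beta-catenin for destruction, and beta-catenin then acts in the nucleus with TCF and LEF proteins. Inhibition of GSK3 reaches the same step without a ligand. In the retina the pathway is known for its parts in the growth of vessels, in the ciliary margin and in the proliferation of Müller glia after injury.

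Intensities summarized with RMA were taken to log2, and group means were estimated for 45037 probe sets in a linear model with limma. A member counts as called where its p, adjusted by Benjamini-Hochberg over every probe set of that comparison, was under 0.05. Differences are on the log2 scale, with the standard error (SE) of the fit. They are 129 minus B6 for strains, 3DIV with vehicle minus normal retina for damage, and CHIR99021 minus vehicle for the inhibitor. An interaction subtracts the effect in B6 from that in 129. A call is described as steady when it held without each of the 12 arrays in turn and under each of 7 other treatments of the data, or under 6 for a member below the median intensity, which one of the treatments leaves out. Steady refers to the call and not to its size, since the mean of the probe sets of a gene, one of these treatments, moved 28 of the 49 calls by more than 1.5 times, and its value is given beside the steady calls concerned. For other calls the highest adjusted p among the fits that left out 1 array is given, with the array that was left out. In such a fit the group keeps 1 array, whose spread is taken to be that of the other groups.

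Of the 42 members, 20 were called in at least 1 of the 9 comparisons and 22 in none, while 60.3% of all genes were called in at least 1. The 49 calls included 20 that were steady, of which 18 were run in all 7 treatments and 2 in 6, and 29 that were lost in at least 1 other treatment or without at least 1 array. Among the 22 members without a call, differences lay between -0.30 and 0.44 over all 9 comparisons. The spread between the 2 arrays of a group had a median SD of 0.06 and a highest SD of 0.67 on the log2 scale over the representative probe sets. Many members were dim, and 18 of the 42 representative probe sets, 9 of them ligands, had a mean below 70.4, the median intensity over all probe sets. The heat map of all members shows that most rows varied little, and that Tcim, Fzd6, Kremen1, Wnt7b and Sfrp1 carried most of the contrast.

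**Figure D1:**
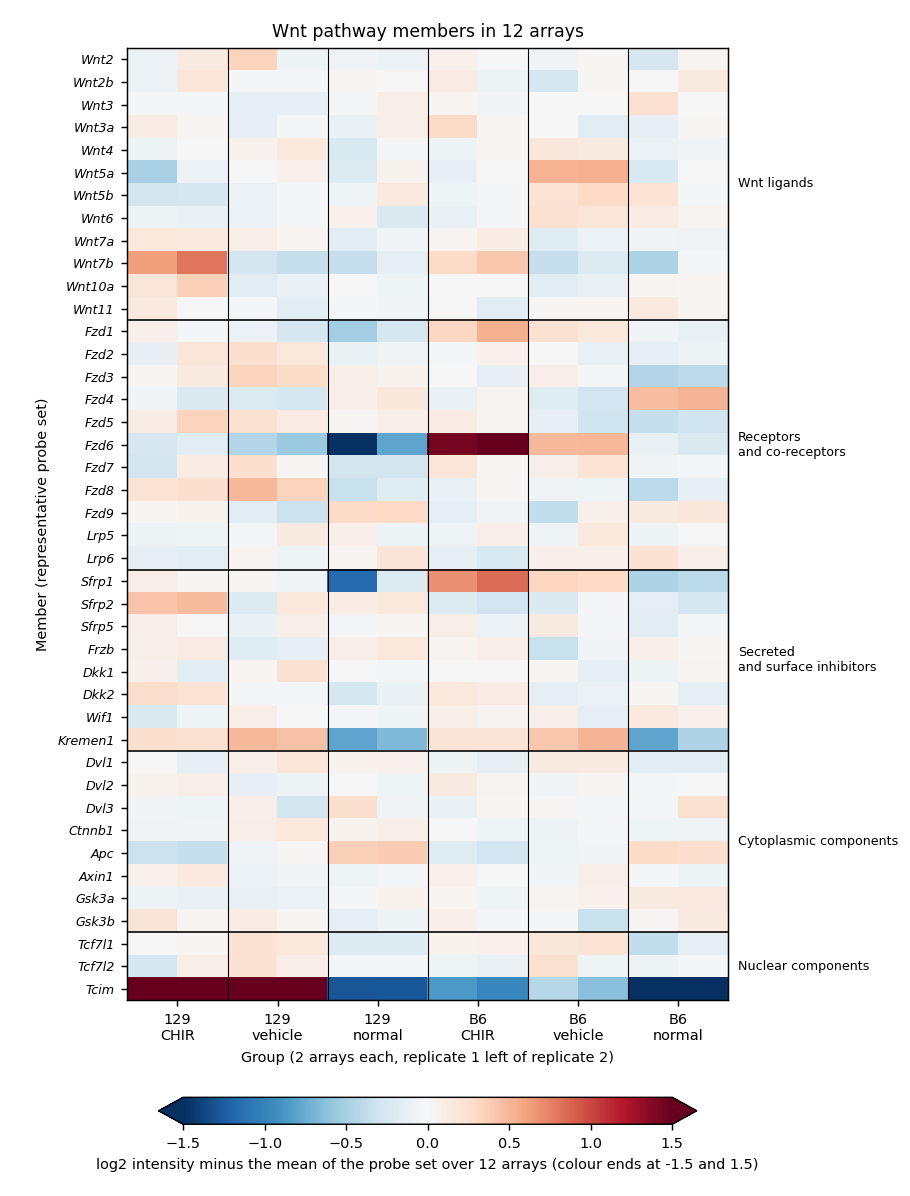
Each row is 1 of the 42 members by its representative probe set and each column 1 of the 12 arrays, with colour giving log2 intensity minus the mean of that probe set over the arrays, and with colours ending at -1.5 and 1.5. Tcim was highest in 129 explants, Fzd6 was highest in B6 explants with CHIR99021, and Kremen1 was lowest in both groups of normal retina.

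The share of members called lay near or below that of all genes in most comparisons. In the strain comparison at 3DIV with CHIR99021, 3 of 42 members were higher and 2 lower in 129, against 7.32% and 5.02% of all genes. At 3DIV with vehicle 4 were higher and 4 lower in 129, against 10.8% and 10.2%, and in the normal retina 3 were higher and 2 lower, against 5.41% and 5.83%. After damage 8 members rose and 4 fell in 129, where 19.1% and 17% of all genes did, and 8 rose and 2 fell in B6, where 19.3% and 16.9% did. The share of members that rose was thus near that of all genes, and the share that fell was smaller, a difference for which no test was made.

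With CHIR99021, 3 members rose and 1 fell in 129, against 7.28% and 7.86% of all genes, and 2 rose and 2 fell in B6, against 8.59% and 12.5%. The strain by damage interaction was called for 1 member, higher in 129, against 1.74% of all genes higher and 1.32% lower. The strain by CHIR99021 interaction was called by limma for 0 of 42 members, while 5 had an unadjusted p under 0.05, and 0.599% of all genes were called higher and 0.357% lower. Median differences over the members lay between -0.03 for the strain by damage interaction and 0.07 for the change after damage in 129, and medians over all genes between -0.01 and 0.03. Replicate 2 of 129 normal retina stood apart, as described next, and the counts that use this group rest on its 2 arrays. Without replicate 2 the change after damage in 129 was 1.14 for Fzd6 and 1.14 for Sfrp1. Without replicate 1 it was 0.29 and 0.18, against 0.72 and 0.66 with both.

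**Figure D2:**
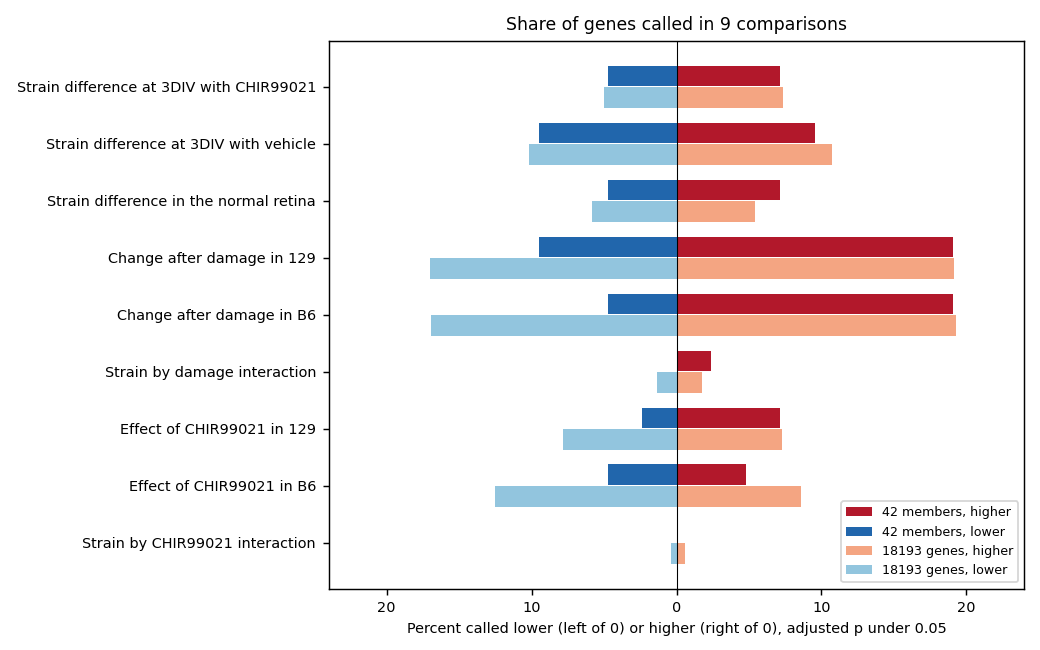
Bars give the percentage of the 42 members (dark) and of all 18193 genes (light) that were called higher (right of 0) or lower (left of 0) in 129, after damage or with CHIR99021, for the 9 comparisons. The dark bars of members called lower after damage and with CHIR99021 are shorter than the light ones, and no dark bar is present for the strain by CHIR99021 interaction.

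Other measures moved with the groups and are given here once. The summed intensity of 19 rod genes was 76473 to 83603 in 129 explants with vehicle, against 185109 to 188501 in 129 normal retina, and 90111 to 94007 in B6 explants with vehicle, against 190832 to 192962 in B6 normal retina. Summed microglia and macrophage genes (16 genes) were 3485 to 3622 in 129 explants with vehicle, against 1405 to 1431 in 129 normal retina, and 8348 to 9016 in B6 explants with vehicle, against 2085 to 2216 in B6 normal retina. With CHIR99021 the microglia sum was 2188 to 2200 in 129 and 3791 to 3986 in B6. The 15 Müller glia genes summed to 55460 to 57956 in 129 explants with vehicle, against 46868 to 47966 in 129 normal retina. In B6 they summed to 60361 to 62354 with vehicle, against 43450 to 44166 in normal retina. With CHIR99021 this sum was 51225 to 56732 in 129 and 60622 to 63114 in B6. The Müller glia genes did not move together. After damage 7 of the 15 were called higher and 5 lower in 129, and 10 and 4 in B6. The shares of all genes were 19.1% and 17% in 129, and 19.3% and 16.9% in B6. Crym had 10346.7 and 9210.6 in 129 explants with vehicle, against 748.3 and 607.0 in 129 normal retina. Glul had 5325.3 and 5433.9, against 11965.8 and 11971.7 in the same groups. The labels of all 12 samples give lens and pigmented epithelium as separated from the neural retina, but lens genes (15 genes) summed to 31309 in replicate 2 of 129 normal retina, against 1425 in replicate 1 and 499 to 1014 in the other groups. The same array had 13430 for 16 genes of pigmented epithelium, ciliary body and melanocytes, against 6629 in replicate 1, while B6 normal retina had 12051 to 14140 and explants 1363 to 2354. The part of these measures in the members' differences was not tested. Leaving out an array, as done below, bears only on the signal of that array. It cannot test the rod, microglia or pigmented epithelium sums, which in each strain separated normal retina from explants as whole groups.

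Among the 12 Wnt ligands, 4 were called in at least 1 comparison, against 60.3% of all genes, and the clearest difference was that of Wnt7b with CHIR99021. Wnt7b encodes a ligand that acts through beta-catenin in many tissues. Its representative probe set had intensities of 246.0 and 277.3 in 129 explants with CHIR99021, against 131.5 and 125.5 in 129 explants with vehicle, and 125.2 and 145.5 in 129 normal retina. In B6 it had 194.7 and 210.1 with CHIR99021, against 125.7 and 138.4 with vehicle, and 115.7 and 156.0 in normal retina. All 4 arrays with CHIR99021 lay above all 8 arrays without it.

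Wnt7b rose with CHIR99021 by 1.02 (SE 0.13) in 129, a 2.03-fold difference (adjusted p = 8.92e-04), and by 0.62 (SE 0.13) in B6, a 1.53-fold difference (adjusted p = 0.0092). The call in 129 was steady, whereas that in B6 was lost without replicate 1 of B6 explants with vehicle (0.55, adjusted p = 0.067) and without replicate 2 of B6 explants with CHIR99021, and its value was 0.33 for the mean of the probe sets. The 2 strains did not differ in this effect beyond the error of the fit, with an interaction of 0.41 (95% interval -0.01 to 0.82, adjusted p = 0.357). Wnt7b did not pass the test after damage, with -0.07 (SE 0.13) in 129 and -0.03 (SE 0.13) in B6. Its second probe set, 1420891_at, was called with CHIR99021 in 129 (0.53, SE 0.10) but had 0.05 (SE 0.10) in B6.

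Wnt5a encodes a ligand that acts mainly through branches that do not use beta-catenin. Its intensities in B6 were 49.0 and 52.9 with CHIR99021, 76.5 and 76.9 with vehicle, and 45.5 and 52.8 in normal retina, so that the explants with vehicle stood above the other 4 B6 arrays. In 129 the values were 37.9 and 50.1 with CHIR99021, 52.9 and 55.5 with vehicle, and 46.0 and 55.0 in normal retina, so that both arrays with CHIR99021 lay below both with vehicle while normal retina overlapped each of these groups. Wnt5a thus rose after damage in B6 by 0.65 (SE 0.13, adjusted p = 0.0034), a steady call over 6 treatments, and was lower with CHIR99021 than with vehicle in B6 by -0.59 (SE 0.13, adjusted p = 0.011). Both differences use the same 2 arrays with vehicle, and for the mean of its 4 probe sets they were 0.27 (adjusted p = 0.039) and -0.29 (adjusted p = 0.042). The second one was lost without replicate 1 of B6 explants with CHIR99021 (-0.54, adjusted p = 0.068) and without either array of B6 explants with vehicle. In 129 the change after damage was 0.11 (SE 0.13), and the strain by damage interaction of -0.54 (95% interval -0.95 to -0.12) did not pass over all probe sets (adjusted p = 0.169). Between strains Wnt5a was lower in 129 with vehicle by -0.50 (SE 0.13, adjusted p = 0.022), lost without any of the 4 arrays compared (adjusted p up to 0.109). The summed microglia genes, given above, were also highest in B6 explants with vehicle, and their part in these differences was not tested. Of the 3 other probe sets of Wnt5a, 1437673_at was also lower with CHIR99021 in B6 (-0.38, SE 0.11). For the mean of the probe sets of Wnt5a the strain difference with vehicle was -0.21 (adjusted p = 0.118).

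Wnt10a, another ligand of the beta-catenin branch, was dim, with 36.1 and 40.8 in 129 explants with CHIR99021, against 28.3 and 29.7 in 129 explants with vehicle. The remaining 8 arrays of Wnt10a lay between 28.5 and 32.6. Its rise with CHIR99021 in 129 was 0.41 (SE 0.08, adjusted p = 0.0073), and was lost without replicate 2 of 129 explants with CHIR99021 (0.32, adjusted p = 0.062) or replicate 1 of those with vehicle. Under CHIR99021 it was higher in 129 than in B6 by 0.27 (SE 0.08, adjusted p = 0.048), a call lost in 11 of the 12 fits that left out an array (adjusted p up to 0.277). Wnt5b, a ligand close in sequence to Wnt5a, was lower in 129 than in B6 explants with vehicle by -0.31 (SE 0.10, adjusted p = 0.044), a call lost without any of 8 arrays (adjusted p up to 0.208). A further Wnt5b probe set, 1439373_x_at, was lower in 129 in all 3 states, by -0.93 with CHIR99021, -0.88 with vehicle and -0.66 in normal retina (SE 0.12 each). Wnt2, Wnt2b, Wnt3, Wnt3a, Wnt4, Wnt6, Wnt7a and Wnt11 were called in no comparison by their representative probe sets, with differences between -0.27 and 0.27.

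**Figure D3:**
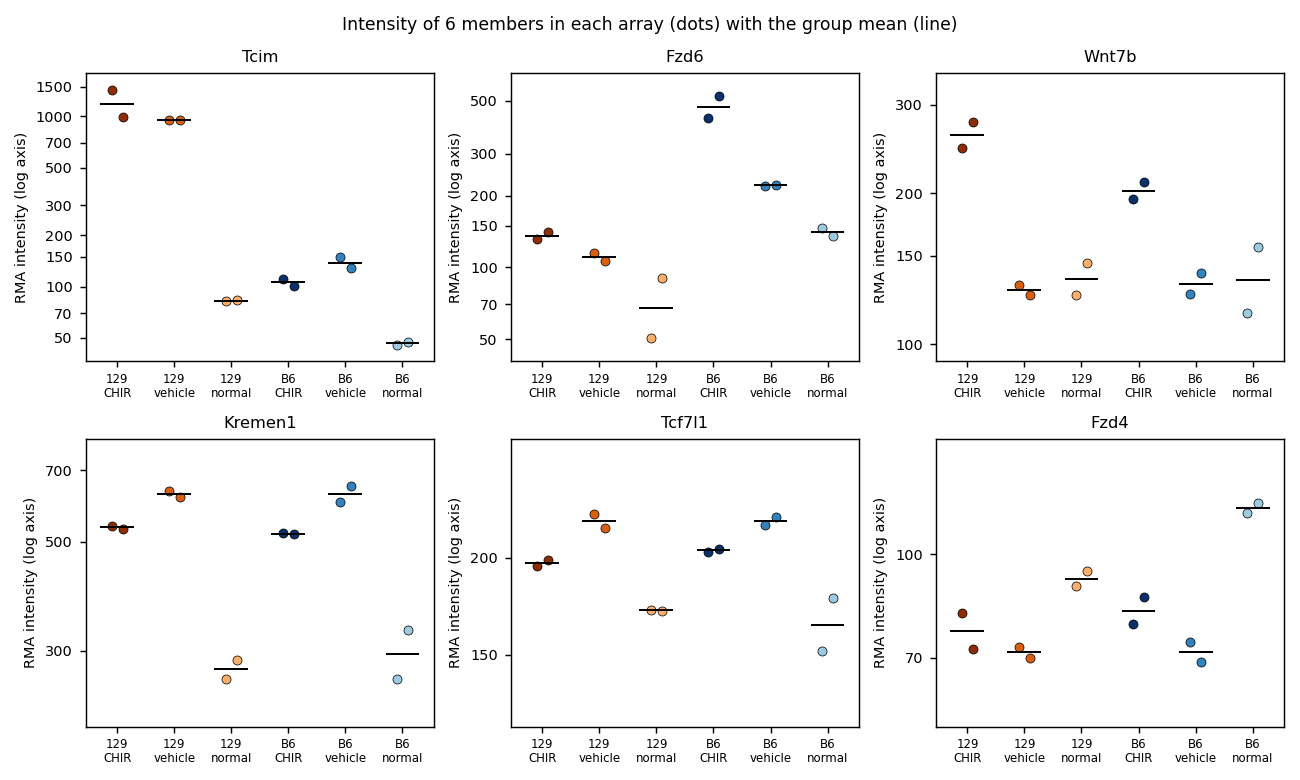
Dots give the RMA intensity of 6 members in each of the 12 arrays on log axes, and lines the group means of the log2 values. Tcim separated 129 explants from all other groups, Fzd6 was lower in 129 than in B6 in every state, Wnt7b was high in the 4 arrays with CHIR99021, and Kremen1 and Tcf7l1 were high and Fzd4 low in explants relative to normal retina.

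Of the 11 receptors and co-receptors, 8 were called at least once, against 60.3% of all genes, and Fzd6 differed most. Fzd6 encodes a Frizzled receptor best known for its part in tissue polarity. In 129 its intensities were 132.0 and 140.4 with CHIR99021, 115.4 and 106.8 with vehicle, and 50.5 and 90.6 in normal retina. In B6 they were 425.1 and 522.8 with CHIR99021, 220.8 and 222.2 with vehicle, and 145.9 and 134.9 in normal retina. In each state both 129 arrays lay below both B6 arrays.

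Fzd6 was lower in 129 than in B6 by -1.79 (SE 0.21, adjusted p = 2.41e-04) with CHIR99021, a 3.46-fold difference and a steady call. With vehicle it was 1.99-fold lower (adjusted p = 0.0065) and in normal retina lower by -1.05 (SE 0.21, adjusted p = 0.0073). The difference with vehicle had an adjusted p of 0.051 without replicate 2 of 129 explants with vehicle (-0.94), and that in normal retina 0.05 without replicate 1 of B6 normal retina. The difference in normal retina was -0.63 without replicate 1 of 129 normal retina and -1.47 without replicate 2, and was not called in a fit to only the arrays compared (adjusted p = 0.074). In B6, CHIR99021 raised Fzd6 by 1.09 (SE 0.21, adjusted p = 0.0046), a 2.13-fold difference and a steady call, whereas in 129 the difference was 0.29 (SE 0.21). The strain by CHIR99021 interaction was -0.80 (95% interval -1.44 to -0.15) and did not pass over all probe sets (adjusted p = 0.244). A second Fzd6 probe set, 1448662_at, moved the same way, with -0.51 (SE 0.08) between strains under CHIR99021 and 0.45 (SE 0.08) with CHIR99021 in B6, while the third, 1458904_at, lay between 51.0 and 61.1 in all arrays. For the mean of the 3 probe sets the strain difference was -0.79 with CHIR99021, -0.45 with vehicle and -0.39 in normal retina, and the effect of CHIR99021 in B6 was 0.49.

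After damage Fzd6 was higher by 0.72 (SE 0.21, adjusted p = 0.022) in 129 and by 0.66 (SE 0.21, adjusted p = 0.032) in B6. For the mean of its probe sets the change was 0.24 (adjusted p = 0.057) in 129 and 0.3 (adjusted p = 0.023) in B6. The 2 arrays of 129 normal retina differed, with 50.5 in replicate 1 and 90.6 in replicate 2, which is the array with the lens signal. Without replicate 1 the change in 129 was 0.29 (adjusted p = 0.132) and without replicate 2 it was 1.14 (adjusted p = 1.23e-04). The call in 129 was also lost without either array of 129 explants with vehicle, and that in B6 without any of the 4 B6 arrays compared (adjusted p up to 0.134).

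Fzd3 and Fzd4 moved in opposite directions after damage. Fzd3, which encodes a Frizzled receptor that guides axons, had 784.4 and 753.3 in 129 explants with vehicle, against 664.0 and 644.0 in 129 normal retina, and 665.8 and 610.3 in B6 explants with vehicle, against 461.2 and 473.2 in B6 normal retina. It rose by 0.23 (SE 0.08, adjusted p = 0.044) in 129 and by 0.45 (SE 0.08, adjusted p = 0.0013) in B6. The call in B6 was steady, while that in 129 was lost without any of 8 arrays (adjusted p up to 0.194). Its probe sets 1450135_at and 1449730_s_at rose further, by 1.04 (SE 0.14) and 0.67 (SE 0.14) in 129 and by 0.91 (SE 0.14) and 1.17 (SE 0.14) in B6, while 1438101_at had -0.21 (SE 0.10) in 129 and -0.16 (SE 0.10) in B6. In normal retina Fzd3 was higher in 129 than in B6 by 0.49 (SE 0.08, adjusted p = 0.0023), again a steady call. The difference with vehicle was 0.27 (SE 0.08, adjusted p = 0.034), lost without replicate 2 of B6 explants with vehicle (adjusted p = 0.196) and without either array of 129 explants with vehicle.

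Fzd4 encodes the receptor through which Norrin, the product of Ndp, shapes the retinal vessels. It had 72.7 and 69.9 in 129 explants with vehicle, against 89.7 and 94.3 in 129 normal retina, and 73.9 and 68.9 in B6 explants with vehicle, against 115.5 and 119.5 in B6 normal retina. The fall was -0.37 (SE 0.09, adjusted p = 0.0071) in 129 and -0.72 (SE 0.09, adjusted p = 8.60e-05) in B6, and the interaction of 0.35 (95% interval 0.08 to 0.62) did not pass over all probe sets (adjusted p = 0.164). The call in B6 was steady, with -0.42 for the mean of the probe sets, whereas that in 129 was lost for that mean (-0.16, adjusted p = 0.220), without replicate 2 of 129 normal retina (-0.33, adjusted p = 0.053) and without replicate 2 of 129 explants with vehicle. In normal retina Fzd4 was lower in 129 by -0.35 (SE 0.09, adjusted p = 0.022), which did not pass without any 1 of the 4 arrays compared (adjusted p up to 0.132). Of its other probe sets, 1419301_at fell in B6 (-0.53, SE 0.15) and 1449416_at stayed between 7.9 and 10.4 in all arrays. For the mean of the probe sets the strain difference in normal retina was -0.16 (adjusted p = 0.298).

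Further Frizzled receptors were called only in part of the comparisons. Fzd8 rose after damage in 129 by 0.67 (SE 0.10, adjusted p = 3.57e-04), with 106.8 and 96.6 in explants with vehicle against 60.8 and 67.3 in normal retina, and this call was steady. Its value was however 0.23 (adjusted p = 0.026) for the mean of its 2 probe sets, since 1445815_at, which was dimmer, had -0.21 (SE 0.09, adjusted p = 0.108). In B6 the change of Fzd8 was 0.21 (SE 0.10), and the interaction of 0.45 (95% interval 0.15 to 0.76) did not pass (adjusted p = 0.121). Fzd7 rose in 129 by 0.41 (SE 0.12, adjusted p = 0.029) and Fzd9 fell by -0.53 (SE 0.12, adjusted p = 0.0059). Those 2 calls were lost, with adjusted p up to 0.204, without replicate 1 of 129 explants with vehicle or either array of 129 normal retina for Fzd7, and, with an adjusted p of 0.052, without replicate 2 of 129 explants with vehicle for Fzd9. A dimmer Fzd7 probe set, 1450043_at, had the opposite sign in B6 (-0.35, SE 0.09). For the mean of the probe sets of Fzd7 the rise in 129 was 0.18 (adjusted p = 0.158).

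Between strains, Fzd5 was higher in 129 by 0.39 (SE 0.10, adjusted p = 0.015) with vehicle and by 0.37 (SE 0.10, adjusted p = 0.029) in normal retina. Fzd8 was higher in 129 with vehicle by 0.47 (SE 0.10, adjusted p = 0.0068). Fzd1 was lower in 129 by -0.40 (SE 0.11, adjusted p = 0.04) with CHIR99021 and by -0.36 (SE 0.11, adjusted p = 0.041) with vehicle. None of these 5 strain calls was steady, and leaving out 1 array brought the adjusted p up to 0.117 and 0.140 for Fzd5, 0.06 for Fzd8, and 0.245 and 0.237 for Fzd1. Other probe sets had the opposite sign without passing the test, with -0.07 (SE 0.13) for Fzd5 in normal retina (1422937_at) and 0.06 (SE 0.11) for Fzd1 with CHIR99021 (1422985_at). For the mean of its probe sets Fzd1 had -0.17 (adjusted p = 0.205) with CHIR99021 and -0.2 (adjusted p = 0.102) with vehicle. Fzd5 then had 0.15 (adjusted p = 0.229) in normal retina, and Fzd8 0.26 (adjusted p = 0.022) with vehicle. Fzd2 and the co-receptors Lrp5 and Lrp6 were called in no comparison, with differences between -0.26 and 0.28.

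**Figure D4:**
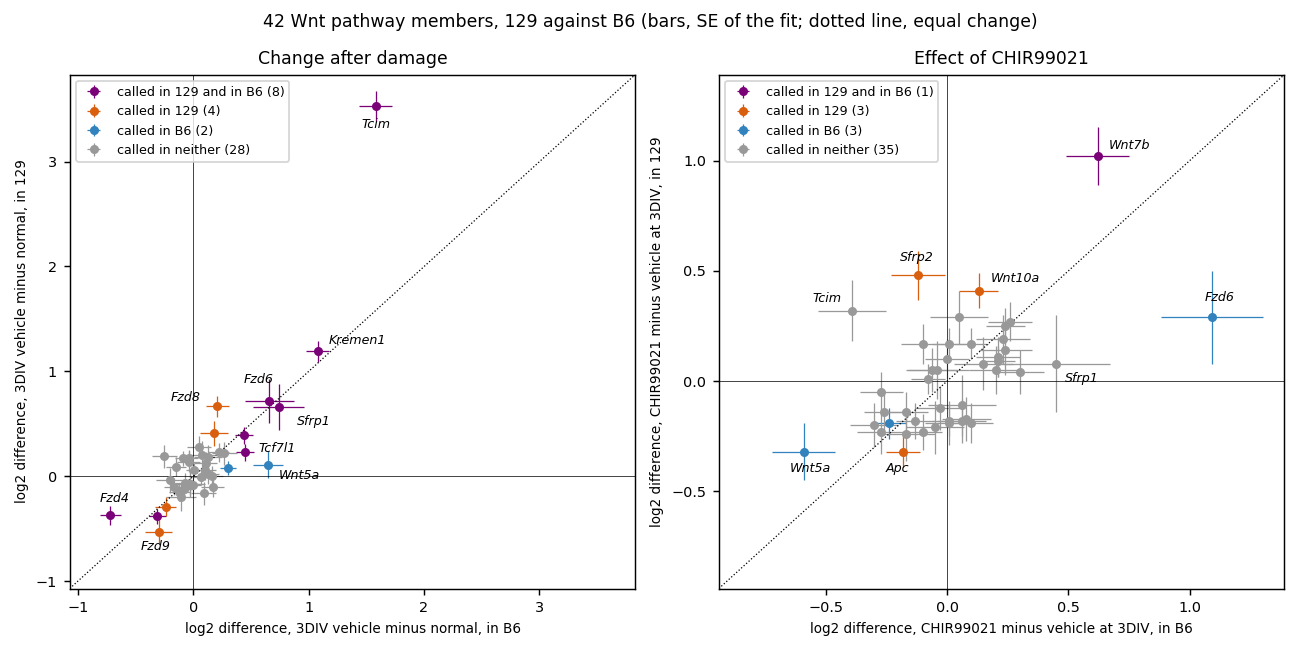
Each point is 1 of the 42 members, with its log2 difference in 129 on the vertical axis and in B6 on the horizontal axis, for the change after damage (left) and the effect of CHIR99021 (right), and bars give the SE of the fit. After damage 8 members were called in both strains and Tcim stood far above the line of equal change, whereas with CHIR99021 only Wnt7b was called in both.

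After damage the lists of called members overlapped between the strains, which share no arrays in these comparisons. Of the 8 members that rose in 129 and the 8 that rose in B6, 6 were in both, namely Tcim, Kremen1, Fzd6, Sfrp1, Tcf7l1 and Fzd3. Among all genes 71.8% of those that rose in 129 also rose in B6, and 71.2% of those that rose in B6 also rose in 129. Apc and Fzd4 were the 2 members that fell in B6, and both were among the 4 that fell in 129, where 65.7% of all falling genes in 129 and 66.1% of those in B6 were shared. With CHIR99021, Wnt7b alone was shared among the 3 rising members in 129 and the 2 in B6, against 51.1% and 43.3% over all genes. Only 1 member in 129 and 2 in B6 fell with CHIR99021, too few to set beside the 71.2% and 44.7% shared over all genes.

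The 8 secreted and surface inhibitors contained 1 member with a steady change after damage in both strains. Kremen1 encodes a cell surface receptor for Dickkopf proteins that takes Lrp6 off the membrane. It had 636.2 and 616.9 in 129 explants with vehicle, against 263.0 and 288.1 in 129 normal retina, and 602.8 and 649.7 in B6 explants with vehicle, against 263.1 and 331.0 in B6 normal retina. With CHIR99021 it had 538.2 and 532.1 in 129 and 522.1 and 518.3 in B6, so that all 8 explant arrays lay above all 4 arrays of normal retina.

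Kremen1 rose after damage by 1.19 (SE 0.10, adjusted p = 6.94e-06) in 129 and by 1.08 (SE 0.10, adjusted p = 1.57e-05) in B6, or 2.28-fold and 2.12-fold. Both calls were steady, with 0.56 in 129 and 0.61 in B6 for the mean of the 3 probe sets. The difference between the strains in this rise was 0.10 (95% interval -0.22 to 0.42). CHIR99021 did not change Kremen1 beyond the threshold, with -0.23 (SE 0.10) in 129 and -0.27 (SE 0.10) in B6. A second probe set, 1445252_at, also rose after damage, by 0.37 (SE 0.09) in 129 and 0.48 (SE 0.09) in B6, while 1421387_at was called in no comparison.

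Sfrp1, a secreted protein that binds Wnts, was measured by 5 probe sets that disagreed on the strain difference. The representative one, 1428136_at, had 133.5 and 127.0 in 129 explants with CHIR99021, 126.8 and 120.1 with vehicle, and 56.1 and 108.6 in normal retina, and in B6 200.7 and 223.5 with CHIR99021, 156.2 and 153.2 with vehicle, and 91.0 and 94.7 in normal retina. Its differences of 129 minus B6 were -0.70, -0.33 and -0.25 (SE 0.22 each) with CHIR99021, with vehicle and in normal retina, of which none passed. By contrast, 1448395_at was higher in 129, by 0.64 (SE 0.29) with CHIR99021, by 1.62 (SE 0.29, adjusted p = 0.0027) with vehicle and by 1.17 (SE 0.29, adjusted p = 0.024) in normal retina. Thus no direction of Sfrp1 between the strains is given here.

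After damage the representative probe set of Sfrp1 rose by 0.66 (SE 0.22, adjusted p = 0.042) in 129 and by 0.74 (SE 0.22, adjusted p = 0.025) in B6. All 5 probe sets had positive differences in both strains, some of them small. In B6, 1438620_x_at had 75.9 and 78.4 in explants with vehicle, against 72.2 and 76.2 in normal retina. Neither call held for the mean of the probe sets, which was 0.32 (adjusted p = 0.186) in B6. As for Fzd6, replicate 2 of 129 normal retina was the higher of the pair, and the change in 129 was 0.18 (adjusted p = 0.227) without replicate 1 and 1.14 (adjusted p = 2.21e-05) without replicate 2. The call in 129 was lost in 11 of the 12 fits that left out an array, and that in B6 without any of the 4 arrays compared (adjusted p up to 0.103). With CHIR99021 in B6, 1460187_at had 34.6 and 26.2, against 11.4 and 12.1 with vehicle, a difference of 1.36 (SE 0.19, adjusted p = 8.56e-04), whereas in 129 it had 11.3 and 12.3 with CHIR99021, against 10.1 and 10.9 with vehicle.

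**Figure D5:**
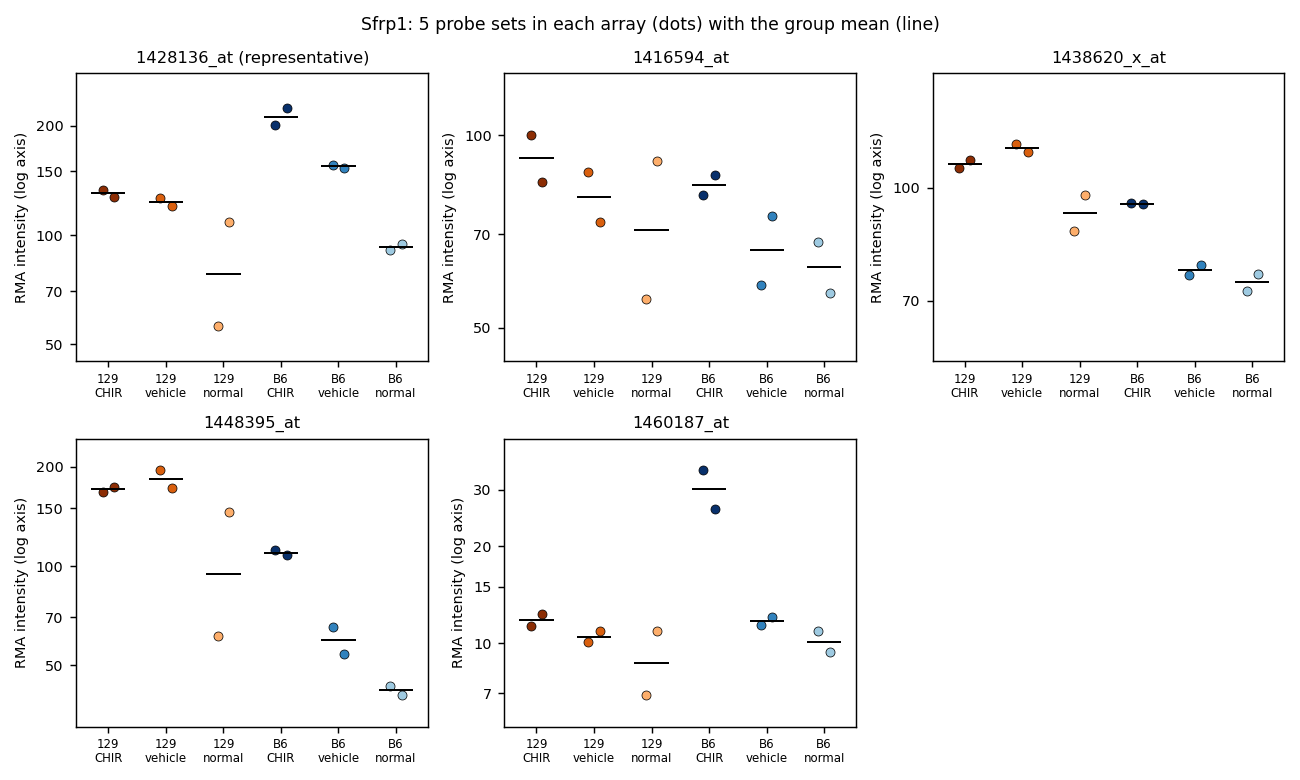
The 5 probe sets of Sfrp1 are plotted with the RMA intensity of each array as dots on log axes and the group means of the log2 values as lines. For 1428136_at the B6 explants lie above the 129 explants, for 1448395_at they lie below, and for 1460187_at the 2 arrays of B6 explants with CHIR99021, at 34.6 and 26.2, stand above the other 10.

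Sfrp2, a relative of Sfrp1, was dim and had 30.7 and 31.7 in 129 explants with CHIR99021, against 19.8 and 25.4 with vehicle and 24.6 and 25.6 in normal retina of 129. All 6 B6 arrays lay between 18.8 and 22.6. It rose with CHIR99021 in 129 by 0.48 (SE 0.11, adjusted p = 0.022), which was lost without replicate 1 of 129 explants with vehicle (0.29, adjusted p = 0.153) or either array of 129 explants with CHIR99021. Under CHIR99021 it was higher in 129 than in B6 by 0.69 (SE 0.11, adjusted p = 0.0029), a steady call over 6 treatments. As Sfrp2 has a single probe set, the mean of the probe sets, 1 of these treatments, could not move its value. The strain by CHIR99021 interaction was 0.60 (95% interval 0.24 to 0.96) and did not pass (adjusted p = 0.118). Frzb, which also binds Wnts, fell after damage in 129 by -0.29 (SE 0.09, adjusted p = 0.034), a call lost without any of the 4 arrays compared (adjusted p up to 0.150). For the mean of the probe sets of Frzb the fall was -0.16 (adjusted p = 0.160). Sfrp5, Dkk1, Dkk2 and Wif1 were called in no comparison, with differences between -0.30 and 0.25. Dkk1, the Dickkopf protein that blocks Lrp6, reached at most 17.2 in any of the 12 arrays, far below the median over all probe sets.

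The 8 cytoplasmic components included the enzymes that CHIR99021 inhibits and the protein they mark. Gsk3a had 1070.5 and 1049.1 in 129 explants with CHIR99021, 1042.6 and 1056.4 with vehicle, and 1109.3 and 1169.6 in normal retina. In B6 the values were 1147.9 and 1073.4 with CHIR99021, 1163.0 and 1178.4 with vehicle, and 1232.7 and 1241.8 in normal retina. The effect of CHIR99021 on Gsk3a was 0.01 (95% interval -0.14 to 0.17) in 129 and -0.08 (95% interval -0.23 to 0.08) in B6.

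Gsk3b had 1934.8 and 1747.4 in 129 explants with CHIR99021, 1837.1 and 1726.4 with vehicle, and 1526.4 and 1602.7 in normal retina. In B6 it had 1784.3 and 1669.6 with CHIR99021, 1674.4 and 1346.1 with vehicle, and 1713.8 and 1864.5 in normal retina. Its effect of CHIR99021 was 0.05 (95% interval -0.19 to 0.28) in 129 and 0.20 (95% interval -0.03 to 0.44) in B6. The 6 Gsk3b probe sets did not move together in B6, where 1434439_at rose with CHIR99021 by 0.32 (SE 0.10, adjusted p = 0.042) and 1439949_at fell by -0.33 (SE 0.10, adjusted p = 0.045).

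Ctnnb1, which encodes beta-catenin, had 4490.2 and 4525.9 in 129 explants with CHIR99021, 4982.5 and 5216.7 with vehicle, and 4851.8 and 4935.0 in normal retina. In B6 the 6 arrays lay between 4428.3 and 4637.6. The effect of CHIR99021 was -0.18 (95% interval -0.33 to -0.03, adjusted p = 0.116) in 129 and 0.01 (95% interval -0.14 to 0.16) in B6, so that the transcript did not pass the test in any comparison. A dimmer Ctnnb1 probe set, 1430533_a_at, fell after damage in B6 by -0.58 (SE 0.14, adjusted p = 0.0071) and was higher with CHIR99021 than with vehicle in B6 by 0.61 (SE 0.14, adjusted p = 0.01), both against the same 2 arrays, which read 79.4 and 88.2.

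Apc, the scaffold of the complex that degrades beta-catenin, fell after damage in both strains. It had 1788.0 and 1879.5 in 129 explants with vehicle, against 2365.4 and 2417.2 in 129 normal retina, and 1766.1 and 1801.6 in B6 explants with vehicle, against 2237.3 and 2197.6 in B6 normal retina. The differences were -0.38 (SE 0.07, adjusted p = 0.0015) in 129 and -0.31 (SE 0.07, adjusted p = 0.0053) in B6, and held without any array, but not for the mean of its 4 probe sets (-0.08 and -0.13, adjusted p = 0.353 and 0.148). With CHIR99021 it was lower still in 129, at 1476.0 and 1461.2 (-0.32, SE 0.07, adjusted p = 0.014), and that call was lost without replicate 2 of 129 explants with vehicle (adjusted p = 0.105) or either array of 129 explants with CHIR99021, and for the mean of the probe sets (-0.07, adjusted p = 0.497). The probe sets 1420956_at and 1450056_at had 0.02 (SE 0.08) and 0.14 (SE 0.11) after damage in 129, 1420956_at had 0.10 (SE 0.08) with CHIR99021 in 129, and 1420957_at was higher with CHIR99021 in B6 (0.55, SE 0.15, adjusted p = 0.032).

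Dvl1, an adaptor that relays the signal from Frizzled, rose after damage in B6 by 0.30 (SE 0.07, adjusted p = 0.0093), a steady call, and had 0.08 (SE 0.07) in 129. It was lower with CHIR99021 in B6 by -0.24 (SE 0.07, adjusted p = 0.046), which was lost in 10 of the 12 fits that left out an array (adjusted p up to 0.193), and its second probe set gave -0.25 (SE 0.07, adjusted p = 0.036). Dvl2, Dvl3, Axin1, Gsk3a, Gsk3b and Ctnnb1 were called in no comparison, with differences between -0.25 and 0.44.

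Among the 3 nuclear components, Tcim showed the largest differences of all 42 members. Tcim, formerly known as TC1, encodes a small protein that in human cells binds Chibby and so favours transcription by beta-catenin. Its intensities were 1435.9 and 988.1 in 129 explants with CHIR99021, 955.3 and 948.1 in 129 explants with vehicle, and 82.1 and 83.0 in 129 normal retina. In B6 they were 110.4 and 101.6 with CHIR99021, 148.7 and 129.1 with vehicle, and 45.6 and 47.2 in normal retina. The 4 arrays of 129 explants read 948.1 or more, and the other 8 read 148.7 or less.

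After damage Tcim rose by 3.53 (SE 0.14, adjusted p = 2.21e-08) in 129, or 11.5-fold, and by 1.58 (SE 0.14, adjusted p = 1.09e-05) in B6, or 2.99-fold. The rise was larger in 129 by 1.95 (SE 0.20, adjusted p = 9.17e-04), the single interaction called among the members. Tcim was higher in 129 than in B6 by 3.49 (SE 0.14, adjusted p = 1.35e-07) with CHIR99021, by 2.78 (SE 0.14, adjusted p = 5.99e-07) with vehicle and by 0.83 (SE 0.14, adjusted p = 0.0032) in normal retina. All 6 calls were steady.

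CHIR99021 did not move Tcim past the threshold, with 0.32 (SE 0.14) in 129 and -0.39 (SE 0.14) in B6, and the interaction of 0.71 (95% interval 0.27 to 1.16) did not pass over all probe sets (adjusted p = 0.134). The second probe set, 1435595_at, gave the same directions, with an 8.38-fold rise after damage in 129, a 2.46-fold rise in B6 and an interaction of 1.77 (SE 0.27, adjusted p = 0.0081). Tcim and Fzd6 were the 2 members called between the strains in all 3 states, Tcim higher and Fzd6 lower in 129.

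Tcf7l1 encodes a TCF protein that represses target genes while beta-catenin is absent. It had 228.1 and 218.7 in 129 explants with vehicle, against 171.5 and 170.6 in 129 normal retina, and 220.4 and 225.8 in B6 explants with vehicle, against 151.4 and 177.7 in B6 normal retina. It rose by 0.39 (SE 0.08, adjusted p = 0.0042) in 129 and by 0.44 (SE 0.08, adjusted p = 0.0018) in B6, both steady, and the strains differed in this by -0.06 (95% interval -0.31 to 0.20). The second probe set, 1450117_at, rose more, by 0.65 (SE 0.09) in 129 and 0.87 (SE 0.09) in B6, and was lower with CHIR99021 than with vehicle in 129 (-0.32, SE 0.09, adjusted p = 0.044) and in B6 (-0.38, SE 0.09, adjusted p = 0.015). Tcf7l2, which mostly activates target genes, was called in no comparison by its representative probe set, with differences between -0.24 and 0.18, while 1429427_s_at rose after damage by 0.45 (SE 0.14) in 129 and 0.57 (SE 0.14) in B6.

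Genes that beta-catenin is known to induce as feedback were examined beside the members as a reading of the inhibitor. Of the 11 measured, 5 rose and 0 fell with CHIR99021 in 129 by limma (8 had an unadjusted p under 0.05), and 4 rose and 1 fell in B6, with medians of 0.30 in 129 and 0.27 in B6 against 0.01 and -0.01 over all genes. Of all genes, 7.28% rose and 7.86% fell in 129, and 8.59% and 12.5% in B6. Nkd1, which restrains Dishevelled, had 487.0 and 520.8 in 129 explants with CHIR99021, against 208.6 and 175.2 with vehicle, and 328.9 and 301.4 in B6 explants with CHIR99021, against 93.2 and 99.6 with vehicle. Its rise was 1.40 (SE 0.10, adjusted p = 2.79e-05) in 129 and 1.71 (SE 0.10, adjusted p = 7.05e-06) in B6. For the mean of the probe sets of Nkd1 it was 0.84 and 0.97. Sp5, a transcription factor that is a direct target, had 64.1 and 56.9 in 129 explants with CHIR99021, against 23.7 and 25.9 with vehicle, and 37.3 and 30.5 in B6 explants with CHIR99021, against 24.7 and 24.4 with vehicle. Sp5 rose by 1.29 (SE 0.12, adjusted p = 8.08e-05) in 129 and by 0.46 (SE 0.12, adjusted p = 0.019) in B6, and more in 129 by 0.83 (SE 0.16, adjusted p = 0.036). The rise of Sp5 in B6 was lost without any of 3 arrays and the interaction without any of 7.

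To set these readings beside the DNA that TCF and LEF proteins read, the 250 bases before each annotated start were searched on both strands for CTTTG followed by AA, AT, TA or TT, which gives 4 strings that cannot hold one another. The windows came from RefSeq on GRCm38.p6. At least 1 match was present in 14.8% of the 32851 windows of all genes. Windows were held for 28 of the 42 members, and 6 of these, Dkk1, Fzd7, Gsk3a, Tcf7l2, Wnt11 and Wnt5b, had a match in 1 of their windows, or 6 of 33 windows in all. No window was held for Tcim, Wnt7b, Fzd6, Kremen1, Sfrp1, Wnt5a or Wnt10a. Among the feedback targets, 8 had windows, and 3 of these, Sp5, Lef1 and Tnfrsf19, had a match, or 3 of 14 windows. The windows of Nkd1 and Axin2 held 0 matches.

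The windows of Sp5 and Dkk1 are shown because both hold 2 matches while their transcripts differed, and that of Sfrp2 because its transcript rose with CHIR99021 in 129 while its window holds none. They are written 5′ to 3′ on the strand of the gene, with matches in capitals. In Sp5 (chr2:70474673-70474922, + strand) the matches began 222 and 104 bases before the start, and in Dkk1 (chr19:30549497-30549746, - strand) 117 and 98 bases before it. The window of Sfrp2 was chr3:83766071-83766320 on the + strand.
Sp5: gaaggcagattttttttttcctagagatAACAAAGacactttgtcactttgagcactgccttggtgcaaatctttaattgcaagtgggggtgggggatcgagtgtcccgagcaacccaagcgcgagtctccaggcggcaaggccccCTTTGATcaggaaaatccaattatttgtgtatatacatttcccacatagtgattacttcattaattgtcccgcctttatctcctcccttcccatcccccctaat
Dkk1: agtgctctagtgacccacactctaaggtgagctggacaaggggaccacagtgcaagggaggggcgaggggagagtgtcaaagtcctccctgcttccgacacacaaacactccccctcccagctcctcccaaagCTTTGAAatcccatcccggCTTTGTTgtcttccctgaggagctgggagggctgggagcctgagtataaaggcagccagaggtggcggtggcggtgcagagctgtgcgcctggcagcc
Sfrp2: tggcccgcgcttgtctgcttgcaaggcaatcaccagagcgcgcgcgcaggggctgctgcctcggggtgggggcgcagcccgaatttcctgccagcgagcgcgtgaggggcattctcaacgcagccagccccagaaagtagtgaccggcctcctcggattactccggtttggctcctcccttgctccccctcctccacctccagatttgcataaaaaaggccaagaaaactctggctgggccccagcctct

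Sp5, with matches, rose with CHIR99021 in both strains. Dkk1, with as many, had -0.18 (SE 0.10) in 129 and 0.06 (SE 0.10) in B6 at its low intensities. Sfrp2, without a match, rose in 129 and had -0.12 (SE 0.11) in B6. Nkd1, also without a match, rose in both strains. A match to these letters describes the sequence and is not evidence of a bound site, and the absence of a match says only that the letters are not in this window.

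The other genes of the pathway were taken as lists by role, and those named are among the 4 called genes with the largest differences of a list in a comparison. Of 14 further ligands, R-spondins and secretion factors, 3 rose and 1 fell after damage in each strain, against 19% and 17% of all genes. No test was made of the counts of these lists. Ndp, which encodes the Fzd4 ligand Norrin, had 836.7 and 811.1 in 129 explants with vehicle, against 117.0 and 126.8 in 129 normal retina, and 342.0 and 348.8 in B6 explants with vehicle, against 109.0 and 118.5 in B6 normal retina. It rose by 2.76 (SE 0.08, adjusted p = 1.61e-09) in 129 and by 1.60 (SE 0.08, adjusted p = 8.72e-08) in B6, and more in 129 by 1.15 (SE 0.11, adjusted p = 4.89e-04), while Fzd4 fell in both. Wls, the carrier that brings Wnts to the cell surface, fell after damage by -0.72 (SE 0.18) in 129 and -0.95 (SE 0.18) in B6, and Porcn, which attaches a lipid to Wnts, rose by 0.42 (SE 0.08) and 0.57 (SE 0.08). For the mean of the probe sets of Wls the change was -0.42 in 129 and -0.51 in B6. Wls had 21.6 and 18.9 in 129 explants with vehicle, against 26.9 and 41.1 in 129 normal retina, of which the higher is the array with the lens signal, and without that array the fall in 129 was -0.41 (adjusted p = 0.103).

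Of 9 other receptors and factors of receptor turnover, 1 rose and 2 fell after damage in 129, and 2 rose and 2 fell in B6. In each strain 19% of all genes rose and 17% fell. Ror1, a receptor tyrosine kinase for Wnt5a, had 75.5 and 59.5 in 129 explants with vehicle, against 57.6 and 71.9 in 129 normal retina, and 78.8 and 85.0 in B6 explants with vehicle, against 28.7 and 38.8 in B6 normal retina. It rose in B6 by 1.29 (SE 0.17, adjusted p = 1.82e-04) and the interaction was -1.23 (SE 0.24, adjusted p = 0.026). The rise was 0.44 for the mean of the probe sets of Ror1, and the interaction was then -0.56 (adjusted p = 0.099) and was also lost without any of 5 arrays. Like Wnt5a, Ror1 was lower with CHIR99021 than with vehicle in B6 (-0.78, SE 0.17, adjusted p = 0.0096), a difference that shares the arrays with vehicle and was not called for the mean of the probe sets (-0.21, adjusted p = 0.254). Its relative Ror2 rose with CHIR99021 in B6 by 1.18 (SE 0.16, adjusted p = 8.19e-04), with 135.4 and 91.8 against 54.2 and 44.4 with vehicle. For the mean of the probe sets of Ror2 the rise was 0.77.

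Of 11 other inhibitors measured, 1 rose and 1 fell after damage in 129, and 4 rose and 1 fell in B6. The shares of all genes were 19% and 17% in each strain. Sostdc1, a secreted inhibitor that binds Lrp6, rose after damage by 1.19 (SE 0.21) in 129 and 2.29 (SE 0.21) in B6 and was lower with CHIR99021 than with vehicle by -1.52 (SE 0.21) in 129 and -1.28 (SE 0.21) in B6. The 129 explants with vehicle, on which both differences in 129 rest, had 358.3 and 196.3, against 104.9 and 129.0 in 129 normal retina, and without replicate 1 of them the rise was 0.75 (adjusted p = 0.0024). Shisa2, which holds Frizzled receptors inside the cell, fell after damage by -0.98 (SE 0.12) in 129 and -1.22 (SE 0.12) in B6.

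Of 20 other cytoplasmic components, 0 rose and 4 fell with CHIR99021 in 129 by limma (5 had an unadjusted p under 0.05), and 1 rose and 5 fell in B6. The shares of all genes were 7.28% and 7.86% in 129, and 8.59% and 12.5% in B6. Frat1 and Frat2 encode proteins that bind GSK3 and keep it from axin. Frat2 had 64.3 and 74.7 in 129 explants with CHIR99021, against 210.8 and 225.1 with vehicle, and 59.8 and 51.8 in B6 explants with CHIR99021, against 188.0 and 185.3 with vehicle. It fell by -1.65 (SE 0.10, adjusted p = 1.00e-05) in 129 and -1.75 (SE 0.10, adjusted p = 4.94e-06) in B6, and Frat1 by -1.05 (SE 0.07, adjusted p = 1.40e-05) and -1.54 (SE 0.07, adjusted p = 1.16e-06). The fall of Frat1 was smaller in 129 (interaction 0.50, SE 0.09, adjusted p = 0.031), a call lost in 10 of the 12 fits that left out an array.

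Of 19 other nuclear components measured, 3 rose and 1 fell after damage in 129, and 3 rose and 2 fell in B6. In each strain 19% of all genes rose and 17% fell. Tle2, a corepressor of TCF proteins, rose after damage by 0.39 (SE 0.12) in 129 and 0.98 (SE 0.12) in B6, and Ctnnbip1, which keeps beta-catenin from TCF proteins, rose by 0.42 (SE 0.08) and 0.44 (SE 0.08). Tle3, a relative of Tle2, rose in 129 by 0.52 (SE 0.07), or by 0.21 for the mean of its probe sets. Hbp1, a repressor that restrains TCF proteins, fell by -0.27 (SE 0.08) in 129 and -0.50 (SE 0.08) in B6. In B6 the change of Hbp1 was -0.25 for the mean of its probe sets. In 129 the rise of Tle2 was lost without 3 of the arrays compared, and for the mean of the probe sets the change of Ctnnbip1 was 0.19 (adjusted p = 0.055) and that of Hbp1 0.01 (adjusted p = 0.922). Of 15 genes of the planar polarity branch, 5 rose and 2 fell after damage in each strain, against the same shares of all genes. Ankrd6, a Dishevelled partner of that branch, rose by 0.80 (SE 0.07, adjusted p = 5.20e-06) in 129 and 0.87 (SE 0.07, adjusted p = 2.94e-06) in B6, and Prickle1, a core polarity gene, fell by -0.61 (SE 0.08) and -0.60 (SE 0.08), or by -0.23 (adjusted p = 0.019) and -0.18 (adjusted p = 0.06) for the mean of its probe sets. For the mean of the probe sets of Ankrd6 the rise in B6 was 0.56.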

How the data were processed

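The 12 arrays, 2 for each of 6 groups of neural retina, were grouped by their labels. Linear intensities were deposited by the authors after RMA, with no version named in the labels or methods, and had array medians of 68.8 to 70.7. Of 45101 probe sets, 64 controls were left out. Gene symbols came from the platform annotation, which gave 1 symbol to 34945 of the 45037 probe sets tested, several to 932 and none to 9160. Probe sets with several symbols entered the adjustment but named no gene.

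Intensities were taken to log2 without a filter. Group means were modelled in limma (3.58.1) under R (4.3.3), and eBayes, without trend and not robust, added 4.69 prior to 6 residual degrees of freedom. P-values were adjusted with Benjamini-Hochberg over all probe sets within each of 9 comparisons, at 0.05, as eBayes and FDR are named in the study's methods. Known changes planted in simulated data were used to test the fit. The number of arrays limits the precision.

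The members and lists were chosen with earlier results of these data known. Every member could be named. Values of every array were given for Gsk3a, Gsk3b and Ctnnb1 and for members called with a log2 difference of at least 1 in size, and also for other called members where this showed which arrays differed, a choice made after their values were seen. From each other list, genes among the 4 called with the largest difference in a comparison could be named. Other probe sets of a member were given mainly where their sign differed from a called one or where only part of them was called, and not in every such case.

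Alternatives were the replicate number as a block, a fit to only the arrays compared, only probe sets above the median level, cyclic loess, centring of arrays on the median, eBayes with trend and robust, the mean of the probe sets of a gene, and a fit without every single array. For CHIR99021 the concentration in the labels was used, since the methods name 2 for explants. Promoter windows and motif counts used Python version 3.11.15, and figures matplotlib version 3.10.9. Cell counts, immunostaining and PCR of the study were not analysed here.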

Additional observations from a re-analysis of the deposited data

Results flagged for a closer look

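The change of Tcim after damage differed between the strains by a test of the difference itself. The rise in 129 exceeded that in B6 by 1.95 on the log2 scale (SE 0.20, limma adjusted p = 9.17e-04), with both 129 explants with vehicle (955.3 and 948.1) above both B6 explants with vehicle (148.7 and 129.1), against 82.1 and 83.0 in 129 normal retina and 45.6 and 47.2 in B6 normal retina. The value lay between 1.85 and 2.05 over all alternatives, with adjusted p up to 0.0079. The cause was not tested. With 2 arrays in a group, single arrays could not be tested as outliers.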

How the results depend on the processing

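Leaving out 1 array at a time changed the number of members called between strains, after damage, with CHIR99021 and for the strain by CHIR99021 interaction. The number of genes called over the whole series changed in these fits as well. Such a fit can leave 1 array in a group, so these counts are not given. With trend and robust eBayes 8 members were called with CHIR99021 in 129, 10 in B6 and 1 for that interaction, against 4, 4 and 0. Over all genes the same fit called 1927 higher and 1942 lower with CHIR99021 in 129, against 1325 and 1430. In B6 it called 2025 and 2745 against 1562 and 2276, and for the interaction 258 and 256 against 109 and 65. The mean of the probe sets of a gene gave 7 in 129 and 12 in B6, and 7 after damage in 129 against 12. Over all genes this mean gave 1677 higher and 1603 lower with CHIR99021 in 129, and 2144 and 2242 in B6. After damage in 129 it gave 3416 and 3333, against 3482 and 3096. Probe sets above the median level alone, which leave out 18 members, gave 10 with CHIR99021 in B6. Over all genes they gave 1950 higher and 2672 lower there. Fits to only the arrays compared gave 2 between strains in normal retina against 5, and 1 for the strain by CHIR99021 interaction. Over all genes these fits gave 469 higher and 554 lower in normal retina against 985 and 1061, and 111 and 69 for the interaction. With the replicate number as a block, 3 members were called between strains with CHIR99021 against 5, and 6 of 49 single calls were lost. Over all genes the block gave 1245 higher and 881 lower there, against 1332 and 913. Between groups, the differences of replicate 1 minus replicate 2 had correlations of -0.11 to 0.04, with 0 of 15 pairs over 0.1. These were taken over all probe sets, dim ones included, so that they cannot exclude a pairing of the samples. No call of a member changed direction, while Hbp1, another nuclear component, had 0.01 after damage in 129 with the mean of its probe sets against -0.27. Calls were lost in 115 of 588 fits without an array, in 14 of 49 with the mean of probe sets and in 11 of 49 with only the arrays compared. Most of the 588 fits left out an array of a group that the comparison did not use. Their share of losses therefore understates how often a call was lost without an array that was compared. The causes were not tested. Signal limits the 18 members below the median level.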
